A study of Homo sapiens with 6 samples.

Results

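The 37 genes described here encode human aminoacyl-tRNA synthetases, and were taken by symbol from a deposited table of 26364 genes. By symbol, 20 are cytosolic enzymes and 17, whose symbols end in 2, are mitochondrial. That split is approximate: TARSL2 ends in 2 but its enzyme works in the cytosol, and GARS and KARS each encode a cytosolic and a mitochondrial form. Expression was measured by RNA sequencing in MV4-11, an established cell line of human acute myeloid leukaemia with an internal tandem duplication in FLT3. All libraries came from this 1 line: 3 of vehicle-treated (DMSO) cells and 3 of cells treated with 22d, an agent known to inhibit the deacetylase HDAC8, at 10 nM, all for 18 hours. The comparison asks which transcripts differ with 22d. Whether the numbered libraries are separate cultures is not stated in the labels; p-values therefore reflect only how these samples vary, and that variation may be technical.

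An aminoacyl-tRNA synthetase joins an amino acid to its tRNA, the step that ties the genetic code to protein synthesis. Mitochondria translate the transcripts of their own genome with a mostly separate set of synthetases, encoded in the nucleus. In the cytosol several of these enzymes sit together in the multisynthetase complex, held by scaffold proteins. The others are called free below, which means only that they lie outside this complex. Transcription of many cytosolic synthetase genes is known to respond to amino acid shortage through ATF4, a factor that binds composite C/EBP-ATF elements with partner proteins, and many genes of protein synthesis are known targets of MYC, which binds E-boxes.

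The libraries held between 19995430 and 23749257 reads in genes, and each of the 37 genes had between 165 and 17376 reads in every library. Between 16268 and 17055 genes had reads in 5 of the libraries and 19285 in 22d replicate 3. Every one of the 10 myeloid markers looked up was above the low-value filter. Of these, LYZ and MPO fell (log2 fold changes -1.46 and -2.59) and FLT3 and CSF3R rose (0.42 and 0.29). The markers CD3D, CD2, MS4A1 and COL1A2 had no read in any library. Of the epithelial markers 1 of 3 was tested, and it, KRT8, rose by 1.06; the B cell marker CD79A was present and did not pass. The part of these differences between the libraries in the results below was not tested, other than by leaving out each library.

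With 22d, 24 of the 37 synthetase genes fell and 0 rose, a share of 64.9% lower. Among all 13297 genes tested, 29.6% were lower and 28.5% higher (58.0% in either direction) by the same test, limma-trend on log2(normalized count + 1), with calls at an adjusted p (Benjamini-Hochberg) below 0.05. Fold changes below are on that log2 scale unless another is named, and a normalized count is a read count divided by the authors' size factor for the library. The median change was -0.56 over the 37 genes and 0.01 over all genes tested. All 37 passed the filter of a mean of at least 10 normalized counts. The authors' deposited table called the same 24 genes lower and 0 higher. Changes are relative to the authors' scaling. Scaling by library totals moved the median of all genes to 0.22 and the share of higher calls among all calls from 49.0% to 65.6%, and then 20 synthetase genes were lower (20.8% of all genes) and 3, NARS, QARS and TARSL2, were higher (39.7% of all genes). After quantile normalization 21 were lower (27.4% of all genes) and 3, NARS, QARS and SARS, were higher (29.7% of all genes).

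**Figure D1:**
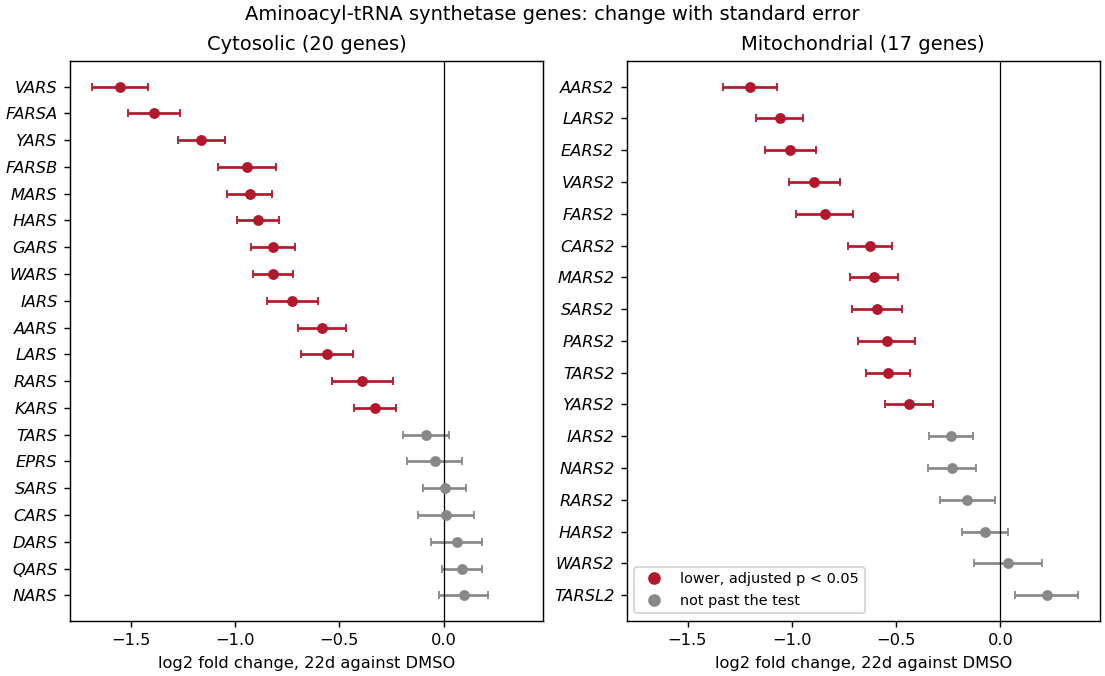
Log2 fold change of each synthetase gene with 22d against DMSO (horizontal axis), with its standard error, for the 20 cytosolic and 17 mitochondrial genes by symbol. Red points passed the test with lower expression and grey points did not pass (under scaling by library totals, 3 genes passed as higher); VARS at -1.55 and AARS2 at -1.20 lie furthest to the left of the 2 panels.

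Summed over the 20 cytosolic genes, the libraries held 84739, 89772 and 83396 normalized counts under DMSO and 52980, 56566 and 52989 with 22d. The sum with 22d was 63.0% of that with DMSO. For the 17 mitochondrial genes the DMSO libraries summed to 18475, 18621 and 17677 and the 22d libraries to 11875, 12402 and 12427, or 67.0% of the DMSO level. In both sets the libraries of the treatment groups did not overlap. Over all 13297 genes tested, the sum with 22d was 85.7% of that with DMSO, also without overlap. In bulk RNA, fewer cells with a transcript and less of it per cell cannot be told apart. Of the cytosolic genes 13 fell (65.0%) with a median of -0.57, and of the mitochondrial genes 11 fell (64.7%) with a median of -0.55. Under scaling by library totals these medians were -0.35 and -0.33, and after quantile normalization -0.30 and -0.44. Under the authors' scaling and library totals the medians of the sets lay close together, and after quantile normalization the mitochondrial median was the lower. Single genes in each set ranged widely under the authors' scaling: from -1.55 to 0.10 in the cytosolic set and from -1.20 to 0.22 in the mitochondrial set. Counting TARSL2 as cytosolic left 11 of 16 mitochondrial genes lower, with a median of -0.57 (-0.35 under scaling by library totals).

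The upstream sequence of these genes shows a feature that the choice of genes did not use. RefSeq promoter windows of 300 bases on GRCh38.p14, from 250 bases before to 50 after a transcript start, were found for 30 of the 37 genes, and none was found for AARS2, DARS, LARS, TARSL2, VARS, VARS2 and YARS. They were searched on both strands for the C/EBP-ATF composite element, spelled TGATGNAA (TTNCATCA on the other strand), and for the E-box CACGTG; no match of one overlapped a match of the other. The composite element was found in 8 genes (26.7%): 7 of 16 cytosolic genes with a window and 1 of 14 mitochondrial ones. Over all 27305 genes with a window the share was 4.46%. The matches are printed with 10 bases on each side on the gene's own strand, with the element in capitals, because 7 of the 8 lie in cytosolic genes.
AARS (chr16:70289676-70289703, minus strand): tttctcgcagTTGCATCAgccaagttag
CARS (chr11:3057408-3057435, minus strand): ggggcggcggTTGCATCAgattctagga
GARS (chr7:30594835-30594862, plus strand): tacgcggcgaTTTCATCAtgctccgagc
IARS (chr9:92293693-92293720, minus strand): tttcagcgcgTTGCATCAcctccgtgcg
MARS (chr12:57488054-57488081, plus strand): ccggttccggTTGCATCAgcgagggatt
NARS (chr18:57621805-57621832, minus strand): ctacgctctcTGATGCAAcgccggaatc
TARS (chr5:33440957-33440984, plus strand): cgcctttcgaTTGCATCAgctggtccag
YARS2 (chr12:32756077-32756104, minus strand): tccacactgcTGATGGAAaaattaagtt
In CARS, IARS, MARS, NARS and TARS the match began within 14 bases of a transcript start. In GARS it began at position -33, in AARS at -187 and in YARS2 at -197, counted from the start.

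Genes with the element did not all respond alike. AARS, GARS, IARS, MARS and YARS2 fell, with changes of -0.58, -0.82, -0.73, -0.93 and -0.44. CARS, NARS and TARS, with changes of 0.01, 0.10 and -0.08, did not pass the test. The 8 genes, which include the mitochondrial YARS2, had a median of -0.51. Among the 9 cytosolic genes with a window and no match, 6 fell (against 29.6% of all genes tested) and the median was -0.39. Under scaling by library totals these medians were -0.29 and -0.17, and after quantile normalization -0.36 and -0.33. Under each of these scalings 4 of the 9 genes without a match fell. Of the 8 genes with a match, 4 fell under library totals (20.8% of all genes) and 5 after quantile normalization (27.4% of all genes). The lists differ in compartment as well, and their difference was not tested. A match in these letters is not a measured binding site.

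The E-box was found in 4 of the 30 genes (13.3%), against 8.77% of all genes with a window: in 3 of 14 mitochondrial genes and in IARS. These matches are printed in the same way, with the E-box in capitals, because each of the 4 genes fell.
CARS2 (chr13:110706503-110706528, minus strand): ctgggatgcaCACGTGcttcgctaac
EARS2 (chr16:23557350-23557375, minus strand): gggagaagccCACGTGtgctattcca
MARS2 (chr2:197705348-197705373, plus strand): gcgcctctcaCACGTGctgtcagaac
IARS (chr9:92293868-92293893, minus strand): gttcgttttcCACGTGgaggcgcaaa
Their changes were -0.63 for CARS2, -1.01 for EARS2, -0.61 for MARS2 and -0.73 for IARS. With 24 of the 37 genes lower in all, 4 of 4 is a description only.

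Among the free cytosolic enzymes, those outside the multisynthetase complex, 8 of 12 genes fell and the median was -0.82. That share, 66.7%, stood beside 29.6% of all genes tested. Under scaling by library totals the median was -0.60, with 8 lower and 1 higher (20.8% and 39.7% of all genes). After quantile normalization it was -0.57, with 8 lower and 2 higher (27.4% and 29.7% of all genes). VARS, which encodes the valyl-tRNA synthetase (chromosome 6, 31777518 to 31795953, GRCh38), held 10877, 11672 and 8958 normalized counts in DMSO replicates 1 to 3 and 2976, 3722 and 4059 in 22d replicates 1 to 3. The 22d libraries all lay below the DMSO libraries, with the lowest value in 22d replicate 1. The DMSO mean of 10502 ± 1395 compared with a 22d mean of 3585 ± 554 (SD, n = 3 each), or 34.1% of the DMSO level. VARS fell by 1.55 (SE 0.13, limma adjusted p = 1.0e-06).

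The cytosolic phenylalanyl-tRNA synthetase is built from alpha subunits, encoded by FARSA, and beta subunits, encoded by FARSB. FARSA (chromosome 19, 12922479 to 12934037) held 16144, 17971 and 14004 normalized counts under DMSO and 5222, 6345 and 6826 with 22d, without overlap. It fell by 1.39 (SE 0.13, limma adjusted p = 1.6e-06). FARSB (chromosome 2, 222570536 to 222656337) held 1542, 1363 and 1745 normalized counts under DMSO and 686, 965 and 779 with 22d. It fell by 0.94 (SE 0.14, limma adjusted p = 8.8e-05). The subunit transcripts were far from equal in level. Per kilobase of the principal coding transcript, the FARSA level with DMSO was 8842 ± 1095 normalized counts, the highest of the 37 genes. The FARSB level was 460 ± 56.7 (SD, n = 3 each).

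YARS, the tyrosyl-tRNA synthetase gene (chromosome 1, 32775237 to 32818153), held 3513, 4430 and 3817 normalized counts under DMSO and 1704, 1877 and 1658 with 22d. It fell by 1.16 (SE 0.11, limma adjusted p = 2.6e-06), and no 22d library came near the lowest DMSO library. The other free enzymes that fell were HARS (histidine, -0.89), GARS (glycine, -0.82), WARS (tryptophan, -0.82) and AARS (alanine, -0.58). In GARS the mean went from 2725 ± 225 to 1544 ± 94.2 normalized counts, and in WARS from 4211 ± 95.4 to 2389 ± 88.4 (SD, n = 3 each). AARS, which charges the same amino acid as the strongly lower AARS2, held 6997, 8780 and 7258 normalized counts in the DMSO libraries and 5277, 5386 and 4655 in the 22d libraries, without overlap.

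The remaining free enzymes, those of cysteine, asparagine, serine and threonine, did not pass the test. SARS, for serine, held 2310, 2743 and 2429 normalized counts under DMSO and 2508, 2498 and 2481 with 22d. The 22d values lay within the DMSO range, a change of 0.00 (SE 0.10, limma adjusted p = 0.97). CARS, for cysteine, held 1072, 1459 and 1445 normalized counts under DMSO and 1475, 1279 and 1227 with 22d. The groups overlapped, DMSO replicate 1 was the lowest library, and the change was 0.01 (SE 0.14). NARS, for asparagine, held 2438, 1929 and 2446 normalized counts under DMSO and 2510, 2517 and 2225 with 22d, a change of 0.10 (SE 0.12, limma adjusted p = 0.50). In NARS the lowest library was DMSO replicate 2, and without it the change was -0.017. TARS, for threonine, held 2081, 2115 and 2455 normalized counts under DMSO and 2257, 2111 and 1907 with 22d. Its groups also overlapped, with a change of -0.08 (SE 0.11).

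**Figure D2:**
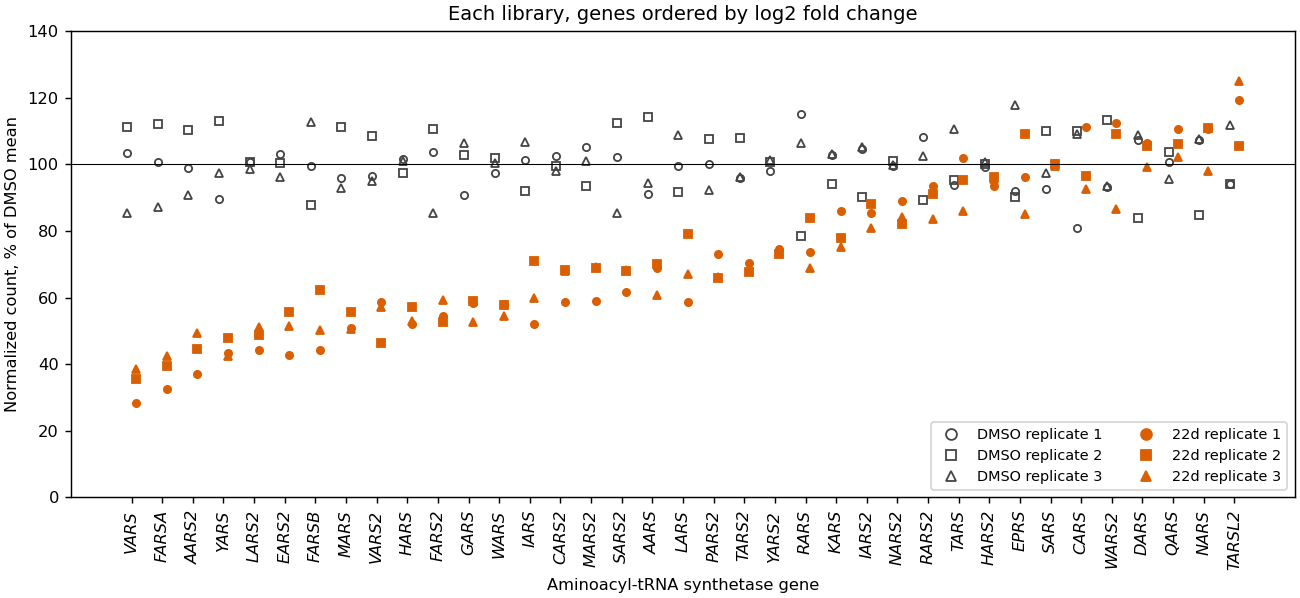
Normalized count of each gene in each library as a percentage of that gene's DMSO mean (vertical axis, linear from 0), with genes ordered by log2 fold change; open symbols are DMSO and filled orange symbols 22d, with a shape for each replicate number. The filled symbols of VARS lie near a level of 34.1% on average, and from TARS to TARSL2 the open and filled symbols mix, except for HARS2.

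The multisynthetase complex includes 8 enzymes encoded by these genes, of which 5 fell (62.5%, against 29.6% of all genes tested), with a median of -0.36. Under scaling by library totals 3 fell (20.8% of all genes) and 1 rose (39.7% of all genes), with a median of -0.14. After quantile normalization 2 of the 8 fell, near the 27.4% of all genes. Then 1 rose (29.7% of all genes), and the median was -0.13. MARS, the methionyl-tRNA synthetase gene (chromosome 12, 57475445 to 57517569), held 4135, 4798 and 4007 normalized counts under DMSO and 2192, 2397 and 2184 with 22d. It fell by 0.93 (SE 0.11, limma adjusted p = 1.0e-05), with all 22d libraries well below the DMSO libraries. MARS shares 519 exonic bases, 7.4% of its exonic length, with ARHGAP9 on the opposite strand, and 63 with MIR6758 on its own strand. It also shares 355 exonic bases, 5.05% of its exonic length, with DDIT3 on the opposite strand. DDIT3, which encodes the stress factor CHOP and was named after its values were seen, rose by 1.22, and without a stated strand setting reads in the shared bases cannot be told apart. IARS (isoleucine) and LARS (leucine) fell by 0.73 and 0.56. In both genes 22d replicate 1 was the lowest library, at 1801 and 2471 normalized counts, and 22d replicate 2 the highest 22d library, at 2456 and 3335.

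KARS (lysine) and RARS (arginine) fell by 0.33 (SE 0.10, limma adjusted p = 0.014) and 0.39 (SE 0.15, limma adjusted p = 0.035), and both calls were weak. RARS held 1183, 809 and 1094 normalized counts under DMSO and 759, 863 and 709 with 22d, so DMSO replicate 2 lay inside the 22d range. RARS no longer passed with DMSO replicate 1 left out (adjusted p = 0.17), DMSO replicate 3 (0.11), 22d replicate 1 (0.058) or 22d replicate 3 (0.12). KARS no longer passed with DMSO replicate 1 left out (adjusted p = 0.059), 22d replicate 2 (0.051) or 22d replicate 3 (0.063). Neither gene passed under scaling by library totals (adjusted p = 0.39 for KARS and 0.37 for RARS).

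The remaining enzymes of the complex did not pass. QARS, the glutaminyl-tRNA synthetase gene, held 7842, 8072 and 7440 normalized counts under DMSO and 8606, 8267 and 7952 with 22d. The ranges overlapped slightly and the change was 0.09 (SE 0.10, limma adjusted p = 0.45). QARS passed as higher under scaling by library totals (0.31, adjusted p = 0.0067) and after quantile normalization (0.41, adjusted p = 0.0014). EPRS, which encodes a single chain that charges glutamate and proline tRNAs, held 1912, 1876 and 2455 normalized counts under DMSO and 2000, 2271 and 1772 with 22d. The EPRS change was -0.04 (SE 0.13). DARS (aspartate) held 1399, 1092 and 1421 normalized counts under DMSO and 1387, 1377 and 1294 with 22d. The DARS change was 0.06 (SE 0.12), with DMSO replicate 2 the lowest library. Levels within the complex thus spread: with DMSO, QARS stood at 2754 ± 113 normalized counts per kilobase and EPRS at 415 ± 64.7 (SD, n = 3 each).

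Among the complex scaffolds, AIMP2 fell by 0.82 (SE 0.11, limma adjusted p = 5.3e-05), from 1091, 1161 and 1136 to 577, 668 and 682 normalized counts. AIMP1 held 579, 436 and 654 normalized counts under DMSO and 677, 719 and 579 with 22d, with overlap, and did not pass (0.26, SE 0.15). EEF1E1, the smallest scaffold, held 87.6, 60.0 and 62.5 normalized counts under DMSO and 30.3, 56.6 and 47.8 with 22d. Its libraries did not overlap between groups, and it did not pass (-0.65, SE 0.27, limma adjusted p = 0.054). AIMP1 passed as higher under scaling by library totals (0.48, adjusted p = 0.027), and EEF1E1 as lower after quantile normalization (-0.90, adjusted p = 0.012).

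By catalytic fold the cytosolic enzymes divide into class I and class II, which differ in the architecture of the active site. Of 9 class I genes 7 fell, with a median of -0.73, and of 10 class II genes 6 fell, with a median of -0.46. The share lower among all genes tested was 29.6%. EPRS, with a site of each class, stands in neither list. The class I median was -0.50 under scaling by library totals and -0.47 after quantile normalization, and the class II median -0.23 and -0.14. The difference between the classes was not tested. Of 12 cytosolic synthetase genes listed as known ATF4 targets, 7 fell and 5 did not pass, with a median of -0.57. With library totals as the scaling the median was -0.35 and 1 of them passed as higher, and after quantile normalization -0.26 and 2.

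Mitochondrial synthetases serve translation of the respiratory chain subunits encoded in mitochondrial DNA. AARS2, for alanine (chromosome 6, 44299654 to 44313326), held 1593, 1776 and 1460 normalized counts under DMSO and 597, 715 and 794 with 22d. It fell by 1.20 (SE 0.13, limma adjusted p = 6.3e-06), to 43.6% of the DMSO level. LARS2, for leucine (chromosome 3, 45388506 to 45549421), held 1152, 1149 and 1125 normalized counts under DMSO and 506, 558 and 583 with 22d. The DMSO libraries lay close together, at 1142 ± 14.4, and the 22d libraries at 549 ± 38.8 (SD, n = 3 each). LARS2 fell by 1.06 (SE 0.11, limma adjusted p = 5.1e-06).

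EARS2 encodes the mitochondrial glutamyl-tRNA synthetase (chromosome 16, 23522014 to 23557731). This enzyme is also known to place glutamate on the mitochondrial glutamine tRNA, which the amidotransferase of QRSL1, GATB and GATC then converts. EARS2 held 1270, 1237 and 1184 normalized counts under DMSO and 526, 686 and 633 with 22d, without overlap, and fell by 1.01 (SE 0.12, limma adjusted p = 1.8e-05). Of the amidotransferase genes, named after their values were seen, GATB and GATC fell by 0.67 and 0.29 and QRSL1 did not pass (0.20, SE 0.14). GATC did not pass under scaling by library totals (adjusted p = 0.60) or after quantile normalization (0.095), and QRSL1 passed as higher under the former (0.42, adjusted p = 0.028).

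VARS2, for valine, held 1402, 1576 and 1383 normalized counts under DMSO and 852, 673 and 833 with 22d, and fell by 0.89 (SE 0.12, limma adjusted p = 4.7e-05). VARS2 shares 22.0% of its exonic length with GTF2H4 on the same strand, so its counts are less certain than those of genes with no such overlap. FARS2, the single-chain mitochondrial phenylalanyl-tRNA synthetase gene, held 544, 580 and 448 normalized counts under DMSO and 284, 277 and 310 with 22d. It fell by 0.84 (SE 0.14, limma adjusted p = 0.00019). Smaller falls were those of CARS2 (-0.63), MARS2 (-0.61), SARS2 (-0.59), PARS2 (-0.55), TARS2 (-0.54) and YARS2 (-0.44). Their 22d means stood between 64.9% of the DMSO level for CARS2 and 73.8% for YARS2, and in none of the 6 did the groups overlap. In YARS2, for tyrosine, replicates were tight, at 573 ± 9.7 normalized counts against 423 ± 4.2 (SD, n = 3 each), and in TARS2, for threonine, 1296 ± 89.8 compared with 890 ± 19.2. Of these, SARS2 shares 10.8% of its exonic length with MRPS12 on the opposite strand, a gene that fell by 1.22. SARS2 also shares 46.2% with AC011455.2 on the same strand, a gene without an entry in the deposited table. The SARS2 counts are therefore less certain than those of genes with no such overlap.

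Of the mitochondrial genes, 6 did not pass. IARS2 (isoleucine) held 2931, 2531 and 2949 normalized counts under DMSO and 2391, 2470 and 2267 with 22d. All its 22d libraries lay below the DMSO libraries, and it did not pass (-0.24, SE 0.10, limma adjusted p = 0.068). Without DMSO replicate 2 IARS2 passed as lower (-0.31, adjusted p = 0.030). NARS2 (asparagine) held 586, 595 and 588 normalized counts under DMSO and 524, 485 and 497 with 22d, again without overlap, and did not pass (-0.23, SE 0.11, limma adjusted p = 0.097). With no filter on low values NARS2 passed as lower (adjusted p = 0.013). RARS2 (arginine) held 432, 357 and 410 normalized counts under DMSO and 373, 364 and 334 with 22d, with overlap (-0.16, SE 0.13).

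The tryptophan enzyme gene WARS2 was among the lowest in level, with 188, 229 and 189 normalized counts under DMSO and 227, 220 and 175 with 22d. Its groups overlapped, with a change of 0.03 (SE 0.16). TARSL2, the threonine enzyme counted here by its symbol, held 191, 191 and 227 normalized counts under DMSO and 242, 214 and 254 with 22d, with overlap. Its change of 0.22 (SE 0.15, limma adjusted p = 0.22) was the highest of the 37 and did not pass. TARSL2 and TARS encode closely related proteins, and how reads common to them were counted is not given in the sources used here.

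The histidine enzymes are encoded by neighbouring genes. HARS and HARS2 lie head to head on chromosome 5, HARS on the minus strand at 140673904 to 140691862 and HARS2 on the plus strand at 140691426 to 140699318 (GENCODE 29, GRCh38). Their RefSeq starts lie 85 bases apart, so their promoter windows overlap. The HARS2 window is printed on its plus strand because it holds the region between the starts, and the 184 of its 300 bases in capitals also lie in the HARS window.
HARS2 (chr5:140691205-140691504, plus strand): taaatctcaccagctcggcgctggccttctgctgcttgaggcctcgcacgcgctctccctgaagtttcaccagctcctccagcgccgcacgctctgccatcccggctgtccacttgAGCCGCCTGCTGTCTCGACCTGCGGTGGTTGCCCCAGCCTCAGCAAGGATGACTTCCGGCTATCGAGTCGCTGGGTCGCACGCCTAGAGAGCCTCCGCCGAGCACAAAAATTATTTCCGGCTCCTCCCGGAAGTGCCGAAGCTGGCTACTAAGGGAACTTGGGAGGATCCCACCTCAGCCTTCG
The window holds 62.3% G and C, and neither the composite element nor the E-box was found in it.

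HARS held 2296, 2202 and 2280 normalized counts under DMSO and 1176, 1293 and 1194 with 22d. It fell by 0.89 (SE 0.10, limma adjusted p = 9.4e-06). HARS2 held 700, 706 and 712 normalized counts under DMSO and 660, 679 and 674 with 22d. Its 22d libraries lay below the DMSO libraries by a narrow margin, and it did not pass (-0.07, SE 0.11, limma adjusted p = 0.58). With no filter on low values HARS2 passed as lower, with the same change (adjusted p = 0.038). The log2 ratio of HARS to HARS2 normalized counts was 1.71, 1.64 and 1.68 with DMSO and 0.83, 0.93 and 0.82 with 22d. This ratio was lower in all 22d libraries, by 0.82, with an exact two-sided permutation p = 0.1, the smallest that 3 libraries against 3 allow. The genes share 437 exonic bases on opposite strands, 11.7% of the exonic length of HARS2, and reads there cannot be told apart without a stated strand setting.

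Cytosolic and mitochondrial genes for the same amino acid were compared in 17 pairs, with EPRS and FARS2 each in 2 pairs. In 7 pairs both genes fell, in 4 only the cytosolic gene, in 5 only the mitochondrial gene, and in 1, NARS with NARS2, neither. With no filter on low values NARS2 and HARS2 also passed as lower and RARS did not pass, which would change the place of their pairs. Under scaling by library totals RARS, PARS2 and YARS2 lost their calls, and after quantile normalization RARS and LARS did. The split of the pairs thus depends on the processing. Across the 17 pairs the changes of the partners had a Spearman rho of 0.10, a description over points that share the 6 libraries. The log2 ratio within the pair did not overlap between groups in 15 pairs, lower with 22d in 7 and higher in 8. Of single genes tested, 33.3% had all 22d libraries below and 32.1% all above the DMSO libraries; the share among other gene pairs was not computed, so nothing is read from the count of 15. For each of these 15 the exact two-sided permutation p was 0.1, the smallest possible, so no pair could pass at 0.05.

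WARS fell and WARS2 did not pass, and their log2 ratio went from 4.45, 4.23 and 4.49 to 3.43, 3.47 and 3.71. In the opposite direction, EPRS did not pass while EARS2 fell. Their log2 ratio was 0.59, 0.60 and 1.05 with DMSO and 1.93, 1.73 and 1.49 with 22d, which was the widest shift of the 17 pairs at 0.97. Valine and alanine were pairs in which both genes fell by unequal amounts. The VARS to VARS2 ratio moved by -0.66 and the AARS to AARS2 ratio by 0.62. Of the other pairs, those of cysteine (0.64), serine (0.60), leucine (0.50), threonine (0.46) and asparagine (0.33), and EPRS with PARS2 (0.50), moved toward the cytosolic gene. Those of tyrosine (-0.72), FARSA with FARS2 (-0.54), isoleucine (-0.49) and methionine (-0.32) moved toward the mitochondrial gene. The ratios of RARS to RARS2 (-0.23) and of FARSB to FARS2 (-0.10) overlapped between groups. DARS, GARS, KARS and QARS have no mitochondrial partner among the 37 genes.

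**Figure D3:**
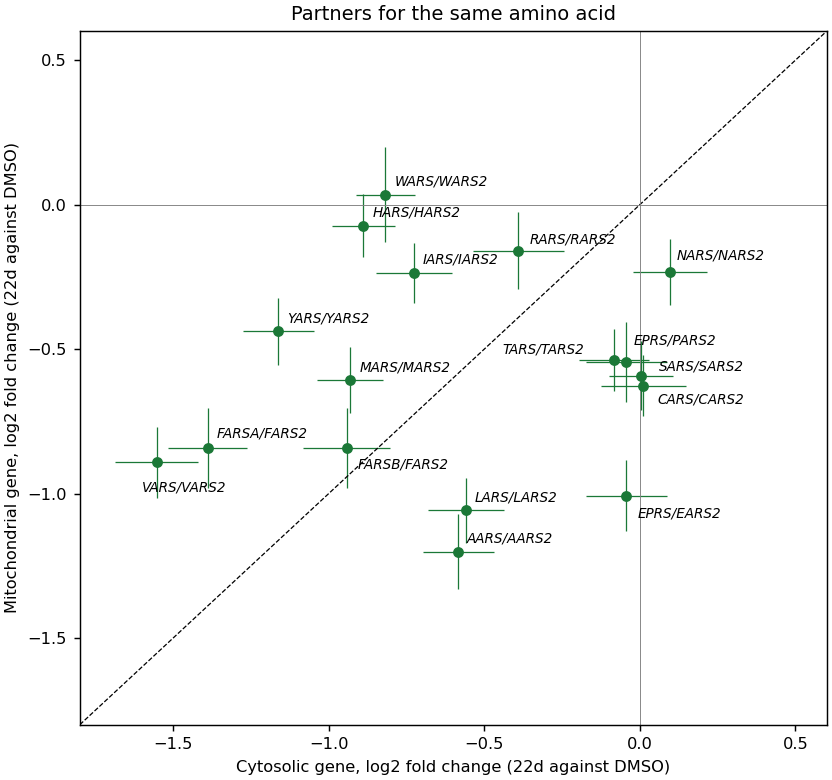
Log2 fold change of the cytosolic gene (horizontal axis) and of the mitochondrial gene (vertical axis) for 17 pairs that share an amino acid, with standard errors; the dashed line marks equal change. Points lie on both sides of the line, with HARS/HARS2 and WARS/WARS2 above it and EPRS/EARS2 and AARS/AARS2 below it.

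The falls changed the order of the synthetase transcripts. Per kilobase of the principal coding transcript, FARSA was first and QARS second with either treatment. VARS went from rank 3 to 6 and YARS from 9 to 16, while NARS, which did not pass the test, went from 17 to 7. FARSA remained first at 3380 normalized counts per kilobase with 22d, close to QARS at 2927, where with DMSO the gap was wider. Lengths come from GENCODE 29, which may differ from the annotation used for counting.

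The libraries with 22d differed among themselves in which genes were lowest. Of the 13 cytosolic genes that fell, the lowest 22d value was in replicate 1 for 6 genes and in replicate 3 for 7. Of the 11 mitochondrial genes that fell, it was in replicate 1 for 6 and in replicate 2 for 5. Some of these lowest values rest on small margins. MARS held 2192 normalized counts in 22d replicate 1 and 2184 in replicate 3, and YARS2 held 419 in replicate 2 and 422 in replicate 3. The same counts over all genes are not given here, so nothing is read from them. Over all 37 genes, 26 had every 22d library below every DMSO library (70.3%), against 33.3% of all genes tested, and 0 had every 22d library above, against 32.1%. At least 2-fold falls on the log2 scale were found in 6 of the 37 genes, VARS, FARSA, AARS2, YARS, LARS2 and EARS2, against 9.87% of all genes tested. That count depends on the scaling. Under library totals VARS (-1.33) and FARSA (-1.17) still reached this size, while AARS2 (-0.98), LARS2 (-0.84) and EARS2 (-0.79) did not. In the authors' deposited table EARS2 stood at -0.99.

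Other genes of tRNA charging, from a list of 17, fell in 8 of 16 tested cases and rose in 2, with a median of -0.28. These shares, 50% and 12.5%, stood beside 29.6% and 28.5% of all genes tested. Under scaling by library totals 6 were lower and 4 higher with a median of -0.06, and after quantile normalization 7 and 1. TSFM, which encodes a mitochondrial elongation factor, was among the genes that fell. It went from 1403, 1364 and 1290 to 484, 563 and 588 normalized counts (-1.31, SE 0.12, limma adjusted p = 1.3e-06). PSTK and SEPSECS, which act in turn to convert serine on the selenocysteine tRNA, rose. PSTK went from 95.6, 74.5 and 108 to 158, 135 and 130 normalized counts (0.62, SE 0.19, limma adjusted p = 0.015). SEPSECS went from 254, 245 and 239 to 421, 333 and 308 normalized counts (0.51, SE 0.15, limma adjusted p = 0.0099). After quantile normalization SEPSECS passed (0.45, adjusted p = 0.020) and PSTK did not (0.42, adjusted p = 0.067). The serine that they convert is loaded by SARS, which did not pass.

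The amino acid response genes of ATF4 went in both directions, with 10 of 22 tested genes higher and 9 lower, and a median of 0.23 (0.45 under each other scaling). These shares, 45.5% and 40.9%, stood beside 28.5% and 29.6% of all genes tested. ATF4 itself held 6706, 9545 and 8406 normalized counts under DMSO and 10467, 8470 and 9039 with 22d, with overlap (0.19, SE 0.13, limma adjusted p = 0.23). It passed as higher under scaling by library totals (0.41, adjusted p = 0.012) and after quantile normalization (0.52, adjusted p = 0.0055). ASNS, the asparagine synthetase gene, held 472, 704 and 682 normalized counts under DMSO and 447, 567 and 498 with 22d, also with overlap (-0.28, SE 0.16, limma adjusted p = 0.15). The largest rises were those of DDIT4, which encodes an inhibitor of mTORC1 signalling, and SLC7A11, the cystine transporter gene. DDIT4 went from 166, 221 and 150 to 741, 680 and 763 normalized counts (2.03, SE 0.16, limma adjusted p = 3.8e-07). SLC7A11 went from 108, 109 and 112 to 371, 390 and 254 normalized counts (1.59, SE 0.18, limma adjusted p = 8.7e-06). The largest falls were those of CHAC1, which encodes a glutathione-degrading enzyme, and PSAT1, a gene of serine synthesis. CHAC1 went from 189, 253 and 165 to 28.4, 42.0 and 44.5 normalized counts (-2.37, SE 0.23, limma adjusted p = 2.9e-06). PSAT1 went from 2267, 2731 and 2671 to 423, 698 and 546 normalized counts (-2.22, SE 0.16, limma adjusted p = 2.5e-07).

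Beside other genes of translation, mitochondrial ribosomal protein genes had a median of -0.63, with 61 of 76 lower (80.3%) and 0 higher. Of all genes tested, 29.6% were lower and 28.5% higher. Scaling by library totals gave 43 lower and 3 higher, and after quantile normalization 59 and 1. Cytosolic ribosomal protein genes had a median of -0.15, with 17 of 80 lower and 2 higher. Their share lower, 21.25%, was below that of all genes tested. Translation factor genes, by symbols starting with EIF or EEF, had a median of -0.24, with 22 of 47 lower (46.8%) and 7 higher (14.9%). The lists were taken by symbol pattern, paralogs included, and their differences from the synthetase genes were not tested. Y-linked copies were left out, and from the translation factors also EEF1E1 and the symbols of factor kinases and binding proteins. Under scaling by library totals the medians were -0.34 for the 37 synthetase genes, -0.41 for mitochondrial ribosomal protein genes, 0.07 for cytosolic ribosomal protein genes and -0.02 for translation factor genes, beside 0.22 for all genes tested. Cytosolic ribosomal protein genes then had 10 lower and 17 higher and translation factor genes 15 and 13. After quantile normalization the counts were 10 and 23, and 17 and 11. Of all genes tested, 20.8% were lower and 39.7% higher under library totals, and 27.4% and 29.7% after quantile normalization.

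**Figure D4:**
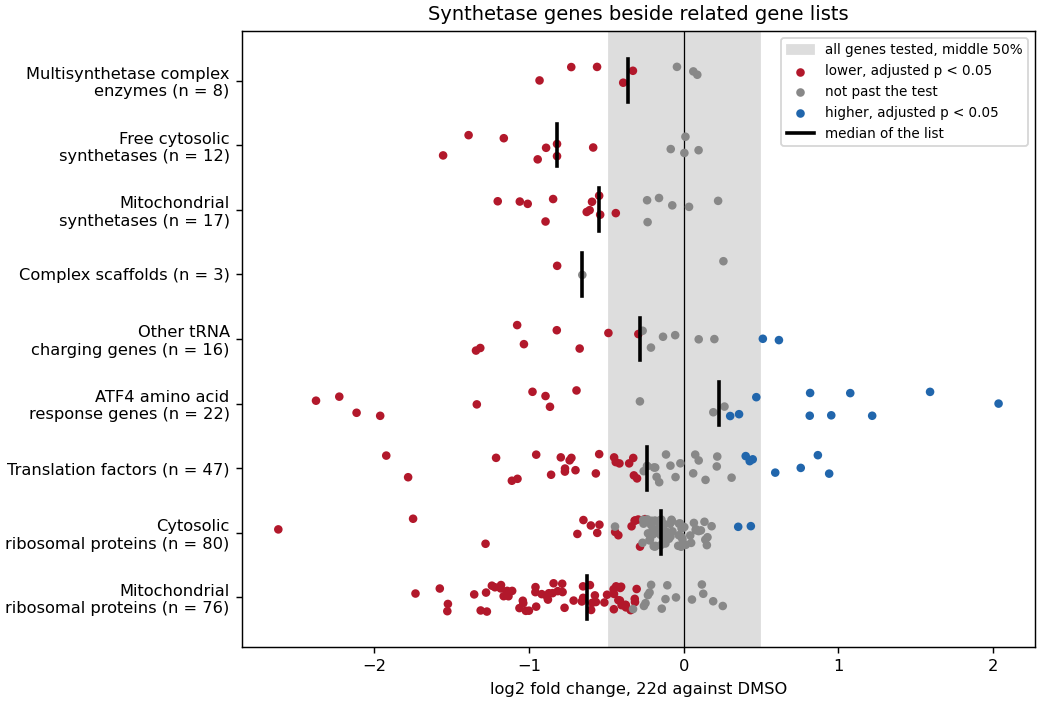
Log2 fold change with 22d against DMSO (horizontal axis) of each tested gene in 9 gene lists, with the median of each list as a black bar; the grey band holds the middle 50% of all genes tested. The synthetase lists and the mitochondrial ribosomal protein genes have no member that passed as higher under the authors' scaling (under library totals 3 synthetase genes and 3 mitochondrial ribosomal protein genes did), while the ATF4 amino acid response genes lie on both sides, from CHAC1 at -2.37 to DDIT4 at 2.03.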

How the data were processed

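The submitters' processing notes list FastQC, cutadapt, STAR, HTSeq and DESeq2, and build hg38; versions, annotation release, filters and strand setting are not given in the sources used here. The deposited table has, per the file headers, 1 column of normalized signal for each library, a mean signal, a log2 fold change with an error from the authors, a test score, and a p-value with its adjusted form. The per-library values are whole reads divided by 1 size factor per library: 100% came out whole within 0.001 of a read, and 1 read was worth 0.839 to 1.14 normalized counts. Each column name gives the treatment and number of its library.

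Limma-trend (limma 3.58.1, R 4.3.3) was fitted, with no block, to log2(value + 1) of the 13297 genes whose mean reached 10 normalized counts, with Benjamini-Hochberg adjustment over all of them; the script was tested on simulated data. Alternatives used edgeR 4.0.16 and DESeq2 1.42.0 on the recovered reads, other scalings, filters and pseudocounts, and left out each library. No set test was run. Positions and lengths come from GENCODE 29, and exact permutation tests from scipy 1.17.1. Members and lists were chosen with earlier results of these data known. Values per library are given for genes that rose, the 5 largest falls in each compartment and genes that did not pass; from related lists, for ATF4, ASNS, the scaffolds and the 2 largest rises and falls. Some genes that this rule names are not reported here.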

Additional observations from a re-analysis of the deposited data

How the results depend on the processing

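The number of synthetase genes lower was 24, and lay between 20 and 25 under every alternative run; 0 were higher, except 3 under scaling by library totals and 3 under quantile normalization (NARS, QARS and SARS). On the recovered reads, edgeR's quasi-likelihood test and DESeq2 each called 24 lower and 0 higher. The cytosolic median of -0.57 became -0.35 under scaling by library totals and -0.30 under quantile normalization. The mitochondrial median of -0.55 became -0.33, -0.44 and, with edgeR, -0.52. With 1 library left out the cytosolic median lay between -0.65 and -0.53, the mitochondrial median between -0.60 and -0.49, and the number lower between 22 and 25. The causes were not tested.

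Besides KARS and RARS, calls were lost for YARS2 (adjusted p = 0.15) and PARS2 (0.068) under scaling by library totals and for LARS (0.13) under quantile normalization. With no filter NARS2 (0.013) and HARS2 (0.038) gained calls, giving 13 mitochondrial genes lower. No gene called lower changed sign. Genes that did not pass did: with library totals EPRS (0.18), HARS2 (0.15), RARS2 (0.061) and TARS (0.14); under quantile normalization EPRS (0.18), IARS2 (0.026), TARS (0.16) and WARS2 (-0.11). With 1 library left out, the change crossed 0 in CARS (-0.13 to 0.088), DARS (-0.060 to 0.13), EPRS (-0.13 to 0.081), NARS (-0.017 to 0.16), SARS (-0.049 to 0.075) and WARS2 (-0.035 to 0.15), none of which passed.

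The labels number the libraries 1 to 3 in each group, but same-numbered libraries did not deviate together (r = -0.03, -0.02 and -0.10). With the replicate block 24 synthetase genes were again lower, with 7419 calls among all genes against 7718.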
